A study of Mus musculus with 6 samples.

Results

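Prostaglandin synthesis and lipid storage in lung fibroblasts (LFs) were followed through 10 genes, chosen by name for their function out of 55364 genes listed in the count table. These genes, and the other lists below, were chosen with earlier results of these data known, which limits any comparison with the shares over all genes. Ptgs1, Ptgs2, Ptges, Ptgis and Ptger4 stand for prostaglandin synthesis and signalling, and Plin2, Lpl, Fabp4, Fabp5 and Cd36 for lipid storage. All 10 had reads, and 9 of them were deep enough to be tested. Primary LFs were grown from collagenase-digested lungs of C57Bl6/J mice 8 to 10 weeks old, either wt or their littermates with 1 targeted allele of Sh3pxd2a, the gene of the podosome scaffold Tks5. Both genotypes were used at passage 2 to 3, kept overnight without serum and then exposed to 10 ng/ml TGF-β1 for 24 h. RNA was read by Quant-Seq, which counts fragments next to the poly(A) tail, in 3 libraries of each genotype. All 6 libraries were exposed to TGFβ, so that the comparison is of Tks5+/- with wt LFs in TGFβ and carries no untreated baseline. The sample labels call the targeted genotype a knockout. The study names it Tks5+/-, obtained no homozygous mice and made heterozygotes with a tm1b or a tm1d allele by germline recombination, without stating which of them gave these cultures. None of the labels says whether replicates were separate animals or separate dishes, so p-values measure the spread between these libraries, which may be technical.

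The libraries held between 1344507 and 2369882 counted reads. Sh3pxd2a itself was at 113 ± 16.5 CPM (counts scaled to the library's size, SD, n = 3) in wt LFs against 138 ± 11.1 (SD, n = 3) in the libraries labelled Tks5+/- (log2 fold change 0.29, standard error 0.20, adjusted p = 0.249). The reads are counted near the poly(A) tail, away from the deleted exon, and whether they can check the genotype was not tested. By Q-RT-PCR the study reported reduced Tks5 mRNA in Tks5+/- LFs, without stating whether the sequenced RNA was measured. Every direction below rests on the labels. The CPM use TMM-scaled library sizes, the fold changes and adjusted p-values come from edgeR's quasi-likelihood test over all 10346 genes deep enough to test, and a gene was called at an adjusted p under 0.05 with a change of at least 1.2-fold. By that rule 44.9% of all genes tested were called, 22.8% upwards and 22.1% downwards in the libraries labelled Tks5+/-, with a median log2 fold change of -0.046. All 10 fibroblast markers checked were deep enough to test and together at 5147 to 9208 CPM per library, led by Col1a1 (not called) and Vim (log2 fold change 1.27). Their members went opposite ways, with 4 called higher in the libraries labelled Tks5+/- and 2 lower. The lower ones were Fn1 (-1.55, adjusted p = 3.56e-06) and Pdgfrb (-0.996, adjusted p = 0.00203). Markers customary for other lung cells were read as well, and several of their sums differed between the genotypes. Whether these reads came from such cells or from the LFs themselves was not tested. The 16 macrophage markers added up to 480, 409 and 2582 CPM in wt replicates 1, 2 and 3 but to 137 to 156 CPM in the libraries labelled Tks5+/-, so that wt replicate 3 stood apart. The 10 endothelial markers, led by Egfl7 (-1.67) and Ramp2 (not called), summed to 119 to 152 against 45.6 to 60.4 CPM. The 6 mesothelial markers, led by Upk3b (-3.28) and Wt1 (not tested), summed to 21.4 to 25.1 against 3.58 to 12.1 CPM. The 10 epithelial markers summed to 22.5 to 54.9 against 29.2 to 62.0 CPM with members going opposite ways, Ager higher (1.82), Cldn4 lower (-4.51) and Cdh1 at 0 counts in every library labelled Tks5+/-, while Sftpc, Sftpb, Sftpa1, Scgb1a1 and Krt5 had 0 counts throughout. The 8 smooth muscle and pericyte markers summed to 447 to 507 against 608 to 729 CPM, a rise carried by Cnn1 (1.00). Of the 6 tested, 4 were called lower and 1 higher, and Actg2 was not called. Of those 4, 3 were kept for the test through their wt libraries alone, as were Upk3b and Cldn4. For these genes a difference was built into their being tested. Without Cnn1 the smooth muscle and pericyte sum was 228 to 235 against 130 to 200 CPM.

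Prostaglandins are made when cyclooxygenases turn arachidonic acid, released from membranes, into an unstable endoperoxide that terminal synthases then convert to individual mediators such as PGE2 and prostacyclin. PGE2 acts on G protein-coupled EP receptors, and in lung fibroblasts it is known as a brake on proliferation, collagen synthesis and myofibroblast differentiation. Neutral lipid is kept in droplets with a perilipin coat, and lipid-storing fibroblasts of the alveolar wall, the lipofibroblasts, are recognised by such droplets and are known to lose them when TGFβ drives them towards a myofibroblast state.

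The stretch of 250 bases before the transcription start is shown for the inducible cyclooxygenase Ptgs2. It is also shown for Ptges and Ptger4, the synthase and the receptor of PGE2 among the 10 genes that were called. The sequences are from RefSeq on GRCm38.p6, each written 5′ to 3′ on the strand of its gene. Capitals mark the C/EBP palindrome TTGCGCAA and the GC box GGGCGG or its reverse complement. Ptgs2 lies at chr1:150099781-150100030 on the forward strand, Ptges at chr2:30903298-30903547 and Ptger4 at chr15:5244188-5244437, both on the reverse strand. For Ptges this is the start of its protein-coding transcript, from 30889471 to 30903297, and the gene as annotated reaches further upstream through a noncoding transcript.
Ptgs2: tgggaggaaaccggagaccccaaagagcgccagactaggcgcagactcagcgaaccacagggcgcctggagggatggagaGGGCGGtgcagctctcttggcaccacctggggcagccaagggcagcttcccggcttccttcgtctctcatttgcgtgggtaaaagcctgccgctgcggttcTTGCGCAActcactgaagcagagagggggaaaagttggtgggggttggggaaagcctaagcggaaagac
Ptges: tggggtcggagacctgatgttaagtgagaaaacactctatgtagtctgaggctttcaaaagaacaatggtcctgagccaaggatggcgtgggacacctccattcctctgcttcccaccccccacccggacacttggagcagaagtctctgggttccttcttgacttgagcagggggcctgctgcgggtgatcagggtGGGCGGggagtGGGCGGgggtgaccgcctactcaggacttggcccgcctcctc
Ptger4: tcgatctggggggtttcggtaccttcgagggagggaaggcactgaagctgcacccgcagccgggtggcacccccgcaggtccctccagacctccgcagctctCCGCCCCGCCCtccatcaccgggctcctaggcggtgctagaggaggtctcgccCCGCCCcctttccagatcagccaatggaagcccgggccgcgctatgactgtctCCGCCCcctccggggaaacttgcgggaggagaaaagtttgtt
The C/EBP palindrome begins 69 bases before the start of Ptgs2 and was held, searching both strands, by 0.164% of 32851 promoter stretches of this length. GC boxes, held by 32.7% of them, begin 170 bases before the start of Ptgs2, 53 and 42 before that of Ptges, and, on the opposite strand, 148, 143, 95 and 42 before that of Ptger4, where the first pair shares a base. The E-box CACGTG, held by 6.02% of all promoter stretches, and the cyclic AMP response element TGACGTCA, held by 1.55%, had no match on either strand of these 3 stretches. The nuclear receptor motif AGGTCA, held by 14% of them, was found before the starts used for Plin2 and Cd36 and not before the 3 genes shown. For Cd36 the stretch, chr5:17835897-17836146 on the reverse strand, lies inside the gene as annotated, which reaches upstream to 17888801. The Ptgs2 stretch also overlaps 183 bases of exon annotated on another transcript, so its distances hold only for the start used. Bases past the starts used were not searched, and a motif without a match here may lie there. Promoters of Ptgs1, Plin2 and Cd36 were matched as well, 6 of the 10 genes in all, leaving Ptgis, Lpl, Fabp4 and Fabp5 unmatched.

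Transcripts of the cyclooxygenases did not differ between the genotypes by the test. Ptges, a PGE2 synthase, was higher and Ptger4, a PGE2 receptor, lower in the libraries labelled Tks5+/-, and both calls were lost in some alternative fits. Another PGE2 synthase and another PGE2 receptor, outside the 10 genes and described below, were called in the opposite directions. Among the lipid storage genes, only Fabp4 was called, at more than 3-fold its wt level, and the droplet coat gene Plin2 was not. Over all 9 genes tested, 2 were called higher and 1 lower, a share in each direction no larger than the 22.8% and 22.1% of all genes, and their median log2 fold change was 0.15. The genotypes did not overlap in 4 of the 9, Ptges, Ptger4, Fabp4 and Fabp5, where 53.8% of all genes tested did not. A gene was kept where 3 libraries reached 4.89 CPM of their raw totals. Both genotypes met this for 8 of the 9, whereas Ptger4 reached it in 1 library labelled Tks5+/- and was kept through its 3 wt libraries, where it was higher.

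**Figure D1:**
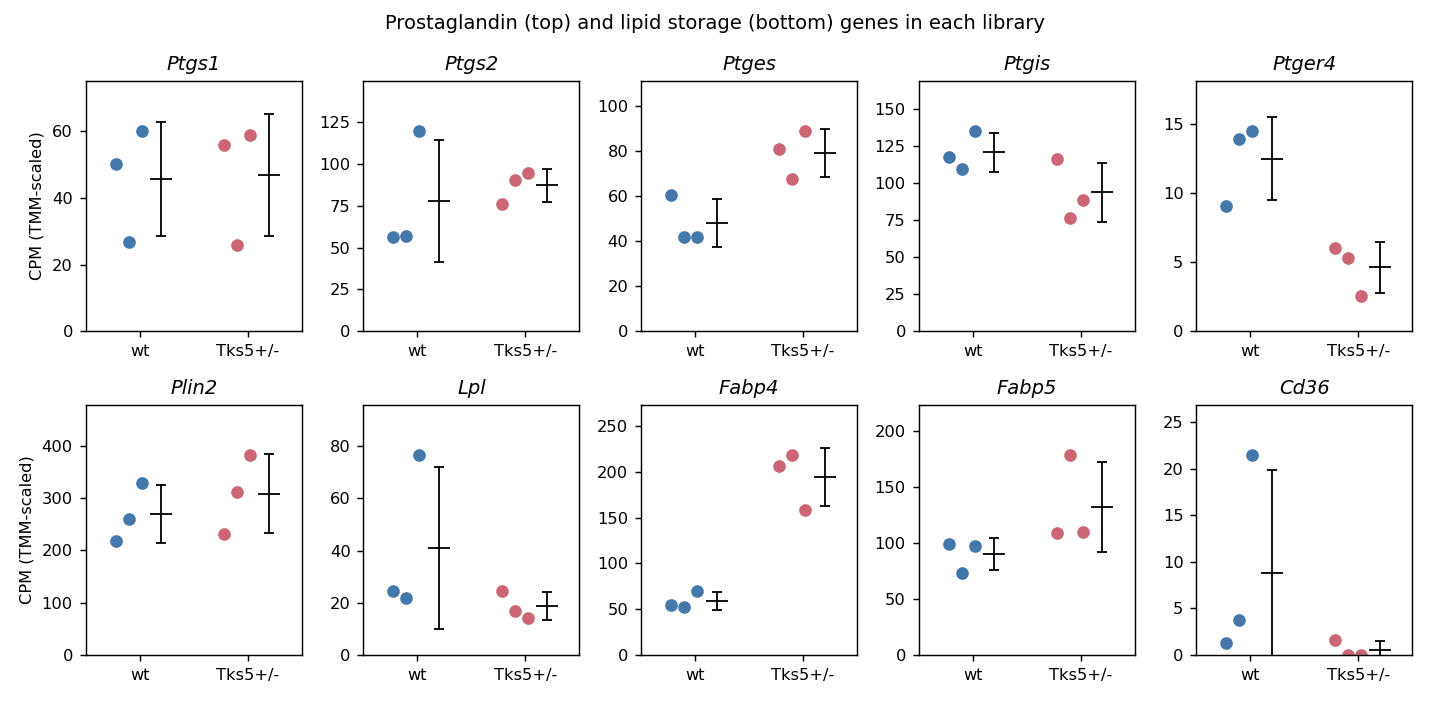
TMM-scaled CPM of the 10 genes in each library, with prostaglandin genes on top and lipid storage genes below, wt LFs in blue and the libraries labelled Tks5+/- in red. Bars are the mean ± SD of 3 libraries, cut at 0 for Cd36. The points of the genotypes are apart for Ptges, Ptger4, Fabp4 and Fabp5, and single wt libraries are high for Ptgs2 (120 CPM), Lpl (76.8 CPM) and Cd36 (21.5 CPM).

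Ptgs1 (ENSMUSG00000047250, chromosome 2 of GRCm38, 36230426 to 36252272) encodes the cyclooxygenase that most cells hold constantly. Its level was 50.2, 26.8 and 60.1 CPM across wt replicates 1, 2 and 3, compared with 56.0, 25.7 and 58.9 CPM in the libraries labelled Tks5+/-. Both genotypes spanned the same range, each with 1 low library, and the log2 fold change was 0.03 (standard error 0.32, 95% interval -0.63 to 0.70, adjusted p = 0.943). The sign of so small a value turned in 6 of the 16 alternative fits.
Ptgs2 (ENSMUSG00000032487, chromosome 1, 150100031 to 150108227), the cyclooxygenase induced by cytokines and growth factors, was measured at 56.6, 57.3 and 120 CPM in wt LFs, and in the other genotype at 76.3, 90.7 and 94.7 CPM. Wt replicate 3 was the highest of all 6 libraries and the other wt libraries the lowest, so that the genotypes overlapped. The log2 fold change was 0.15 (standard error 0.26, 95% interval -0.39 to 0.68, adjusted p = 0.667, exact permutation test on CPM, two-sided, p = 0.8, where 3 libraries against 3 cannot go below 0.1). Without wt replicate 3 it was 0.61 (adjusted p = 0.0511). Within libraries, Ptgs1 had 0.284 to 0.886 counts for each count of Ptgs2, and the ratio overlapped between the genotypes.

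Ptges (ENSMUSG00000050737, chromosome 2, 30889471 to 30929863) encodes the inducible microsomal synthase that makes PGE2 from the cyclooxygenase product. It had 60.5, 41.7 and 41.9 CPM across wt replicates 1, 2 and 3 against 81.2, 67.9 and 89.0 CPM in the libraries labelled Tks5+/-. Each of the latter lay above each wt library. The mean went from 48.0 ± 10.8 CPM (SD, n = 3) to 79.4 ± 10.7 (SD, n = 3), a rise of 1.66-fold or 0.74 on the log2 scale (standard error 0.23, 95% interval 0.27 to 1.2, adjusted p = 0.0106). The exact permutation test on CPM gave its smallest possible two-sided p of 0.1. The call was lost without wt replicate 2 (0.64, adjusted p = 0.0684), without wt replicate 3 (0.64, adjusted p = 0.0535) and with library totals as the only scaling (0.32, adjusted p = 0.262, which is 0.78 above the median of all genes in that fit).
Ptgis (ENSMUSG00000017969, chromosome 2, 167191805 to 167240604) encodes prostacyclin synthase. Its CPM were 117, 110 and 135 in wt LFs against 116, 76.7 and 88.5 in the libraries labelled Tks5+/-, with Tks5+/- replicate 1 inside the wt range. The log2 fold change was -0.37 (standard error 0.21, 95% interval -0.81 to 0.07, adjusted p = 0.167), and Ptgis was not called. Its last exon shares 468 bases with 1110018N20Rik on the opposite strand, a gene with 2 counts in all.
The transcripts of these synthases, which draw on the same endoperoxide, can be compared within a library, free of scaling. There were 0.517, 0.381 and 0.310 counts of Ptges per count of Ptgis across wt replicates 1, 2 and 3, against 0.701, 0.886 and 1.01 in the libraries labelled Tks5+/-. Every library labelled Tks5+/- thus had a higher ratio than every wt library. As Ptges alone already separated the genotypes, this ratio is not an independent result.

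Ptger4 (ENSMUSG00000039942, chromosome 15, 5206661 to 5244187) encodes EP4, a PGE2 receptor that raises cyclic AMP. It was the least abundant of the 9 genes tested, with 14, 26 and 39 reads across wt replicates 1, 2 and 3 against 11, 9 and 5 in the libraries labelled Tks5+/-. In CPM these were 9.01, 13.9 and 14.5 against 6.04, 5.27 and 2.56, and the highest library labelled Tks5+/- lay below the lowest wt library. Ptger4 fell 2.73-fold, from 12.5 ± 3.00 (SD, n = 3) to 4.62 ± 1.83 CPM (SD, n = 3), for a log2 fold change of -1.45 (standard error 0.42, 95% interval -2.32 to -0.58, adjusted p = 0.00737). The exact permutation p was 0.1. At this depth the call was near its limit. It was lost in DESeq2 (-1.43, adjusted p = 0.0582) and without Tks5+/- replicate 3, the lowest library (-1.11, adjusted p = 0.05004), and its adjusted p ran from 0.00114 to 0.0582 over the 15 alternatives that tested it. The end of Ptger4 overlaps 82 bases of Ttc33 on the opposite strand. Whether the counting kept to 1 strand is not given in the sources used here, and Ttc33, with 115 to 210 counts per library, did not show the fall of Ptger4 (log2 fold change 0.26, adjusted p = 0.380).

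Of 36 other genes of eicosanoid synthesis, breakdown and signalling, 16 were tested, 7 were higher in the libraries labelled Tks5+/- and 2 lower, where 22.8% and 22.1% of all genes were, with a median log2 fold change of 0.47 against -0.046 over all genes. Pla2g10, Ptgds and Alox15 had no count. Of the 5 with the smallest adjusted p, 4 encode enzymes and 1 a receptor. Lta4h, which turns leukotriene A4 into leukotriene B4, went from 34.8 ± 5.42 to 82.7 ± 10.9 CPM (SD, n = 3; log2 fold change 1.24, adjusted p = 1.12e-04). Prxl2b, a prostaglandin F synthase, went from 12.2 ± 1.77 to 34.7 ± 4.83 CPM (1.51, adjusted p = 1.37e-04). Cbr1, a carbonyl reductase that can convert PGE2 to prostaglandin F, rose from 31.4 ± 7.13 to 70.5 ± 7.54 CPM (1.16, adjusted p = 3.31e-04).
Ptgr1, which reduces oxidised prostaglandins and leukotrienes to inactive forms, rose by 1.32 on the log2 scale (adjusted p = 8.25e-04). The related reductases, Ptgr2 (0.86, adjusted p = 0.0160) and Zadh2 (0.79, adjusted p = 0.0199), were called in the same direction, and these and the following 2 genes are named after their values were seen. Ptger2, which encodes EP2, the other PGE2 receptor that raises cyclic AMP, was higher in the libraries labelled Tks5+/-, with reads of 3, 11 and 11 for wt LFs against 23, 12 and 23 (log2 fold change 1.36, adjusted p = 0.0167). It was kept for the test through the latter, as only 1 wt library reached the minimum. Ptges3, a chaperone partner also known as a cytosolic PGE2 synthase, was lower (-0.67, adjusted p = 0.0172), unlike Ptges. The receptor of thromboxane, Tbxa2r, fell from 11.1 ± 1.97 to 2.57 ± 1.17 CPM (SD, n = 3; -2.10, adjusted p = 9.11e-04). It was kept for the test through its wt libraries alone, so that a difference was built into its being tested. Upstream of the cyclooxygenases, the cytosolic phospholipase Pla2g4a was not called (0.14, adjusted p = 0.774).

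Plin2 (ENSMUSG00000028494, chromosome 4, 86648386 to 86670060) encodes the perilipin that coats lipid droplets in most cells and is a customary marker of lipofibroblasts. It was the most abundant of the 10 genes, at 218, 261 and 329 CPM across wt replicates 1, 2 and 3 against 232, 311 and 383 CPM in the libraries labelled Tks5+/-. The ranges overlapped over most of their length. The log2 fold change was 0.19 (standard error 0.22, 95% interval -0.27 to 0.65, adjusted p = 0.499), and it turned to -0.32 on the authors' normalized counts, to -0.24 with library totals and to -0.04 with correction for transcript length and GC content, without a call in any of the 16 alternatives.

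Fabp4 (ENSMUSG00000062515, chromosome 3, 10204088 to 10208576) encodes a cytosolic carrier of fatty acids typical of adipocytes, macrophages and capillary endothelium. Its CPM were 54.7, 51.9 and 69.7 across wt replicates 1, 2 and 3 against 207, 219 and 159 in the libraries labelled Tks5+/-. The lowest of the latter stood well above the highest wt library. The mean rose 3.29-fold, from 58.8 ± 9.57 (SD, n = 3) to 195 ± 31.9 CPM (SD, n = 3), which is a log2 fold change of 1.72 (standard error 0.22, 95% interval 1.27 to 2.17, adjusted p = 1.78e-06). The exact permutation p was 0.1. Fabp4 was called higher in each of the 16 alternatives, with log2 fold changes of 1.30 to 1.89.
Markers of cell types in which Fabp4 is customary moved in different ways, and their part in its level was not tested. The macrophage and endothelial sums were lower in the libraries labelled Tks5+/-, where Ptprc, Adgre1, Marco and Pecam1 had 0 counts in each library. Other markers of these cells were read there, with 139 to 207 counts of Lyz2 and 33 to 46 of Egfl7, and the endothelial Ramp2 was not called (0.32, adjusted p = 0.331). Of the 8 adipocyte markers, only Plin4 was tested and was lower (-0.77, adjusted p = 0.0147), and it made up most of their sum of 32.8 to 57.3 CPM in wt LFs against 34.0 to 34.8 CPM. Without Plin4, the other 7 summed to 0 to 2.68 CPM in wt LFs and to 6.65 to 9.36 CPM in the other genotype, where every library was higher. Cfd was read 0, 2 and 5 times in wt LFs against 9, 7 and 11 times, and Retn 0, 1 and 1 times against 4, 4 and 2 times. Cidec had no count in any library, and Adipoq had 1 count in all 6 together. A count of 0 allows up to 3 counts in a library, and these floors cover counting error only.
Fabp5 (ENSMUSG00000027533, chromosome 3, 10012548 to 10016607), a close relative of Fabp4 on the same chromosome, was at 99.1, 73.3 and 97.5 CPM in wt LFs against 109, 178 and 110 CPM in the libraries labelled Tks5+/-. Although the genotypes did not overlap, the gap was small and Tks5+/- replicate 2 carried much of the difference. The log2 fold change of 0.55 (standard error 0.23, 95% interval 0.08 to 1.03, adjusted p = 0.0529) missed the threshold, and over the 16 alternatives Fabp5 was called in 3, with adjusted p from 0.0223 to 0.680. Fabp5 has processed pseudogenes, and how reads that fit several places were counted is not given in the sources used here, so its level is uncertain to that extent. In wt replicates 1, 2 and 3 there were 0.552, 0.708 and 0.715 counts of Fabp4 for each count of Fabp5. The libraries labelled Tks5+/- had 1.90, 1.23 and 1.45, so that the order of the pair was opposite in the genotypes in every library. As Fabp4 alone already separated the genotypes, this ratio is not an independent result.

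**Figure D2:**
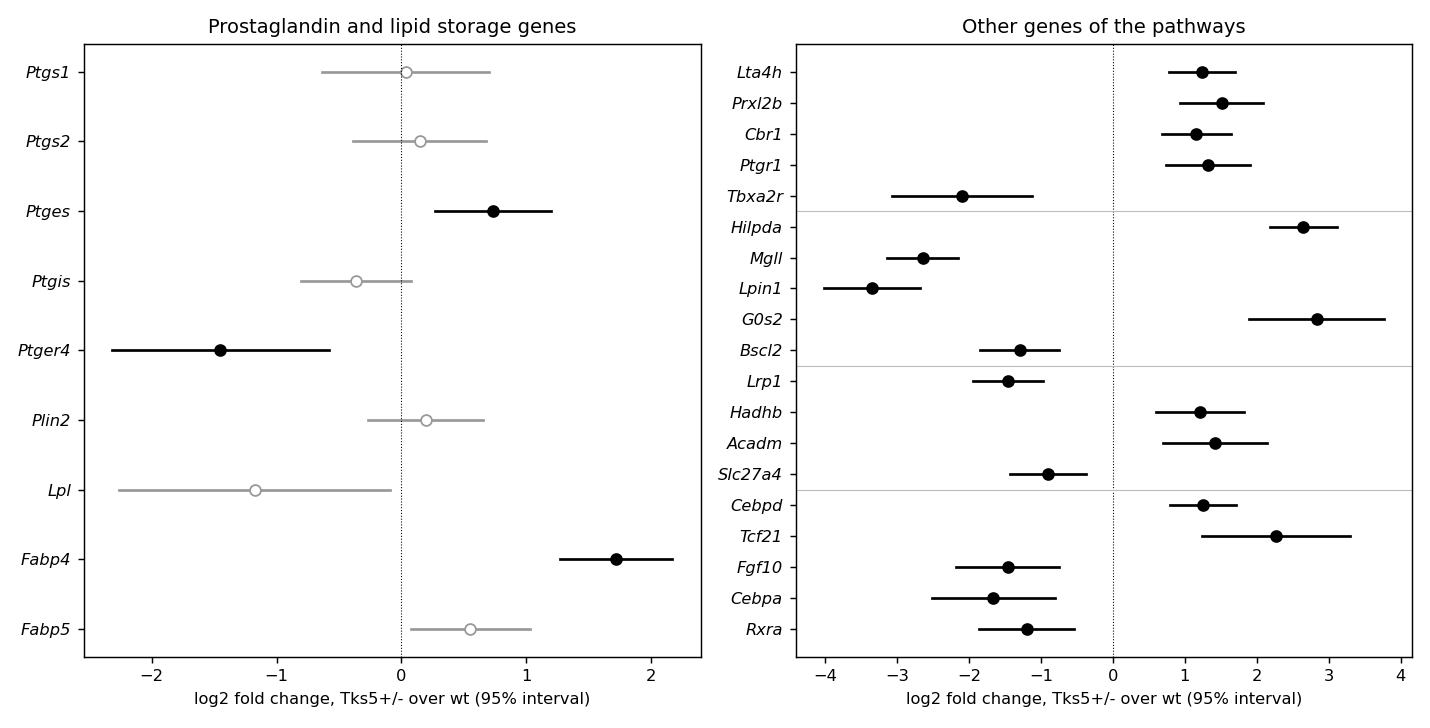
Log2 fold changes of libraries labelled Tks5+/- over wt LFs with 95% intervals from edgeR, for the 9 genes tested on the left and for named genes of 4 other lists with small adjusted p on the right, divided by lines (eicosanoid, lipid droplet, fatty acid handling, lipofibroblast regulators). Filled black points were called. Fabp4 at 1.72 and Ptger4 at -1.45 lie furthest from 0 among the called genes on the left. The right panel, chosen for small adjusted p, runs from -3.35 for Lpin1 to 2.84 for G0s2. Ptger4, Lpin1, Tbxa2r, Cebpa and Fgf10 were kept for the test through their wt libraries alone. G0s2 and Tcf21 were kept through the libraries labelled Tks5+/- alone, so that for all of these a difference was built in.

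Lpl (ENSMUSG00000015568, chromosome 8, 68880491 to 68907448) encodes the secreted lipase that frees fatty acids from circulating triglycerides, and it is made by lipofibroblasts, adipocytes and macrophages. Its CPM were 24.5, 21.9 and 76.8 across wt replicates 1, 2 and 3 against 24.7, 17.0 and 14.3 in the libraries labelled Tks5+/-. Wt replicate 3 alone stood high, and the other wt libraries overlapped with the other genotype. The log2 fold change was -1.17 (standard error 0.48, 95% interval -2.26 to -0.09, adjusted p = 0.0744). Without wt replicate 3 it was -0.32 (adjusted p = 0.485), whereas without wt replicate 1 (-1.43, adjusted p = 0.0253) or wt replicate 2 (-1.48, adjusted p = 0.00602) Lpl was called lower, and it was called in 6 of the 16 alternatives in all.
Cd36 (ENSMUSG00000002944, chromosome 5, 17781690 to 17888801), a membrane receptor that takes up long-chain fatty acids and oxidised lipoproteins, was read 2, 7 and 58 times across wt replicates 1, 2 and 3 against 3, 0 and 0 times in the libraries labelled Tks5+/-. Most of its wt reads came from wt replicate 3, and it was too shallow to be kept for the test. The genotypes overlapped, with 1.29 CPM in wt replicate 1 and 1.65 CPM in Tks5+/- replicate 1, and the exact permutation p was 0.2. A floor was set at 3 counts in each library labelled Tks5+/-, which Tks5+/- replicate 1 itself reached. The wt mean of Cd36 was 5.38-fold above this floor, and 1.53-fold without wt replicate 3. Fits without the filter called Cd36 lower (edgeR, adjusted p = 6.61e-07, and DESeq2, adjusted p = 0.00761).
The macrophage markers had the same high library. Of the 16, 12 were tested, 7 lower in the libraries labelled Tks5+/- and 0 higher, beside 22.1% and 22.8% of all genes. Of the 7, 6 were kept for the test through their wt libraries alone, so that a difference was built into their being tested. Each of the 16 was highest by CPM in wt replicate 3. The most abundant were Lyz2, at 192, 180 and 1299 CPM in wt replicates 1, 2 and 3, and Ctss, at 45.7, 46.6 and 366 CPM. In the libraries labelled Tks5+/-, Lyz2 had 139, 157 and 207 counts, while Ptprc, Adgre1 and Marco had none. In bulk RNA, fewer cells of a type and less RNA per cell cannot be told apart, and the part of macrophage RNA in the levels of Lpl and Cd36 was not tested.

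**Figure D3:**
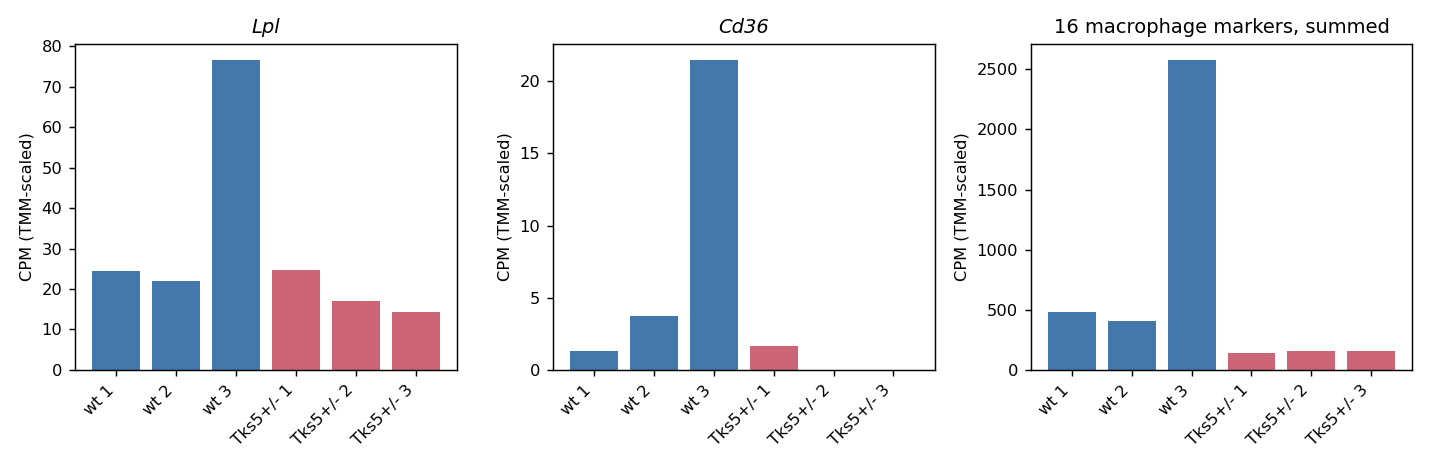
TMM-scaled CPM of Lpl, of Cd36 and of 16 macrophage markers added together, as bars from 0 for each of the 6 libraries. Wt replicate 3 is the highest bar in each panel, at 76.8, 21.5 and 2582 CPM, and the markers are also higher in the other wt libraries (480 and 409 CPM) than in the libraries labelled Tks5+/- (137 to 156 CPM).

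Among 25 other lipid droplet genes, 17 were tested, 3 were higher in the libraries labelled Tks5+/- and 7 lower, beside 22.8% and 22.1% of all genes, with a median log2 fold change of -0.45. Some fitted changes were larger in size than that of Fabp4, and they ran in both directions. Hilpda, a small droplet protein that restrains the triglyceride lipase Pnpla2, rose from 95.7 ± 9.82 to 598 ± 128 CPM (SD, n = 3; log2 fold change 2.65, adjusted p = 1.15e-08). G0s2, another inhibitor of that lipase, was read 6, 9 and 2 times in wt LFs against 46, 32 and 37 times in the libraries labelled Tks5+/- (2.84, adjusted p = 2.91e-05), and was kept for the test through the latter, as 1 wt library reached the minimum. Pnpla2 itself was not called (-0.59, adjusted p = 0.220).
Mgll, which completes triglyceride breakdown by cleaving monoacylglycerol, fell from 132 ± 21.7 to 21.2 ± 3.92 CPM (SD, n = 3; -2.64, adjusted p = 2.66e-08). Lpin1, the phosphatidate phosphatase that makes diacylglycerol for triglyceride synthesis, fell from 51.9 ± 12.9 to 5.03 ± 1.85 CPM (SD, n = 3; -3.35, adjusted p = 7.36e-08), and was kept through its wt libraries, as 1 library labelled Tks5+/- reached the minimum. Bscl2, the gene of seipin, which shapes nascent droplets, was lower by the test (-1.30, adjusted p = 4.06e-04). The remaining calls, named after their values were seen, were Fitm2 (-1.71, also kept through wt LFs), Gpam (-1.04), Lipa (-0.92) and Plin4 (-0.77), which were lower, and Cideb (0.61), which was higher. Plin5, Cidec, Mogat1, Fitm1 and Pnpla3 had no count.

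Of 32 other genes of fatty acid uptake, binding and oxidation, 21 were tested, 2 were higher and 4 lower, fewer than the 44.9% called over all genes, with a median log2 fold change of -0.40, and Fabp1, Fabp2 and Fabp6 had no count. Lrp1, a large endocytic receptor, fell from 124 ± 11.7 to 45.4 ± 13.6 CPM (SD, n = 3; -1.45, adjusted p = 3.19e-05). The fatty acid transporter Slc27a4 was lower too (-0.90, adjusted p = 0.00663). Corrected for transcript length and GC content, Lrp1 and Slc27a4 were no longer called (-0.36, adjusted p = 0.202, and -0.44, adjusted p = 0.152).
Acadm, which begins the oxidation of medium-chain fatty acids, went from 6.78 ± 1.70 to 18.3 ± 3.22 CPM (SD, n = 3; 1.42, adjusted p = 0.00218). The subunits of the mitochondrial trifunctional protein moved apart, with Hadhb at 1.21 (adjusted p = 0.00196) and Hadha, named after its values were seen, at -0.73 (adjusted p = 0.0135). Fabp3, the heart-type relative of Fabp4 and Fabp5, was at -0.0016 (adjusted p = 0.997).

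The regulators of the lipofibroblast state were mixed. Of 17 genes, 10 were tested, 2 were higher and 3 lower, beside 22.8% and 22.1% of all genes, with a median log2 fold change of -0.07, and Ppargc1a and Pthlh had no count. Pparg, the nuclear receptor that drives lipid storage and the expression of Fabp4, Plin2, Lpl and Cd36 in adipocytes, was read 0, 2 and 1 times in wt LFs against 2, 6 and 2 times in the libraries labelled Tks5+/-, too few to test. Its partner Rxra fell from 33.9 ± 11.7 to 14.7 ± 5.43 CPM (SD, n = 3; -1.20, adjusted p = 0.00426), but was not called with correction for transcript length and GC content (-0.66, adjusted p = 0.109).
Factors of the C/EBP family, which bind the palindrome shown before Ptgs2, went different ways. Cebpd rose from 53.0 ± 4.79 to 126 ± 30.1 CPM (SD, n = 3; 1.25, adjusted p = 9.71e-05), Cebpa was at 16.2 ± 4.30 and 5.23 ± 3.10 CPM (SD, n = 3; -1.66, adjusted p = 0.00233, kept through wt LFs), and Cebpb was not called (0.15, adjusted p = 0.622). The last exon of Cebpd shares 562 bases with Spidr on the opposite strand, which had 59 counts in all. Tcf21, a transcription factor of the lipofibroblast lineage, was read 3, 4 and 5 times in wt LFs against 11, 21 and 21 times in the libraries labelled Tks5+/- (2.26, adjusted p = 8.02e-04), and was kept for the test through the latter alone. Fgf10, a growth factor made by that lineage, was at 18.8 ± 2.49 and 6.70 ± 1.27 CPM (SD, n = 3; -1.46, adjusted p = 0.00152), and was kept through the former.

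**Figure D4:**
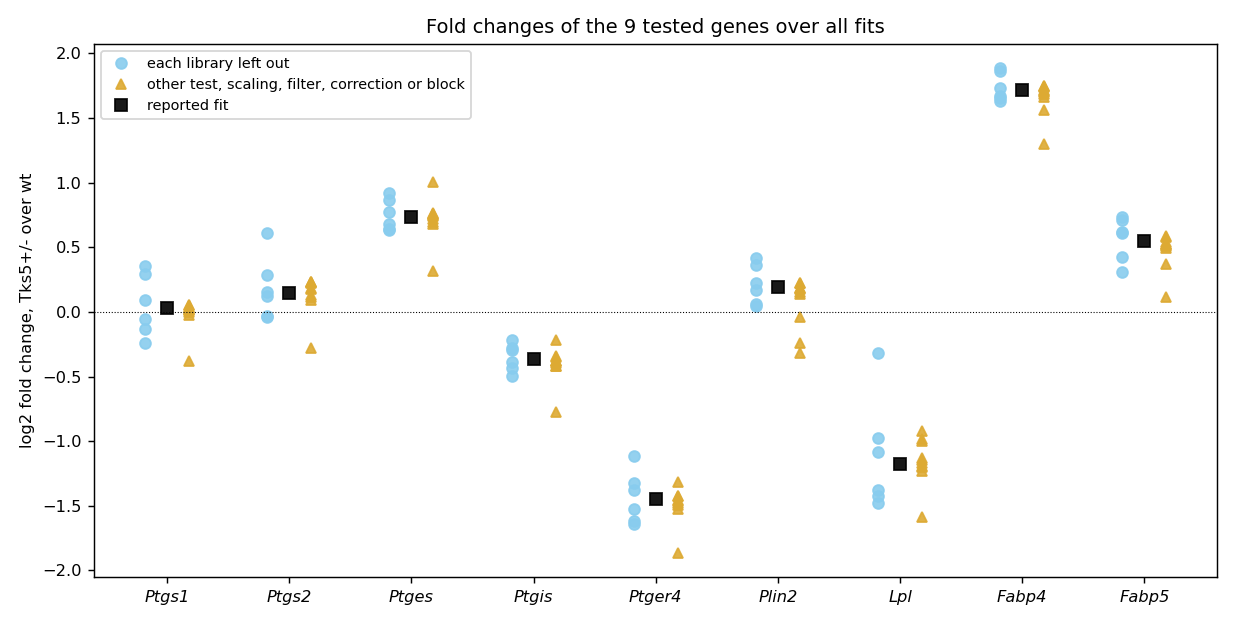
Log2 fold change of each tested gene, libraries labelled Tks5+/- over wt LFs, in the reported fit (black squares), in the 6 fits that each leave out 1 library (blue circles) and in fits with another test, scaling, filter, correction or the replicate block (yellow triangles). Fabp4 stays between 1.30 and 1.89 and Ptger4 between -1.86 and -1.11, Ptgs1, Ptgs2 and Plin2 lie on both sides of 0, and Lpl moves from -1.17 to -0.32 in the fit without wt replicate 3.

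The spread among replicates differed from gene to gene. In wt LFs the coefficient of variation of the CPM was 10.8% for Ptgis, 16.1% for Fabp5 and 16.3% for Fabp4, but 46.6% for Ptgs2, 75.4% for Lpl and 125% for Cd36, and the last 3 all had their highest value in wt replicate 3. In the libraries labelled Tks5+/- it was 11.1% for Ptgs2 and 28.9% for Lpl. Ptgs1 varied by 37.5% in wt LFs and 39.1% in the libraries labelled Tks5+/- and so was similarly noisy in both.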

How the data were processed

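The genes and lists described here were chosen with earlier results of these data known. Quant-Seq libraries of 3 wt and 3 Tks5+/- LF cultures were grouped by their labels. The authors used Trim Galore for trimming, HISAT2 and BOWTIE2 for alignment to GRCm38, and deposited raw counts, made with metaseqR2 on UTR regions and summed per gene. They also deposited normalized counts, treated here as a score, which EDASeq made and which were rounded to whole numbers. The options of EDASeq and the strand used in counting are not given in the sources used here. Of 55364 genes listed, 55104 matched GENCODE M21, 21720 had a count and 10346 passed filterByExpr of edgeR 4.0.16 (R 4.3.3). These were scaled by TMM and tested by quasi-likelihood with robust dispersions, and p-values were adjusted by Benjamini-Hochberg over all of them. Scaling by library totals in place of TMM moves the median of all genes, so calls near the threshold depend on it. Counts in UTRs near the poly(A) tail do not separate transcripts that share an end, and reads shared between related genes can be split. Standard errors and intervals come from the fit. Exact permutation tests, two-sided, were run on the CPM of each gene.

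The genes named were the 10 genes of the opening, Sh3pxd2a, Pparg, Cebpa, the 5 called genes with the smallest adjusted p of each of 4 other pathway lists, and from each marker list the 2 with the most counts and those at 0. Others are marked in the text as named after their values were seen, or are markers that define a cell type or run against their list, genes that overlap a named gene, or uncalled members given for their role (Pnpla2, Pla2g4a, Fabp3, Cebpb). A gene that this rule names is not reported here. The alternatives were DESeq2 1.42.0, limma-voom (limma 3.58.1), RLE, upper-quartile and library-total scaling, the authors' normalized counts on a log2(value + 1) scale with limma, filters set to none or to 10 counts in every library, correction for transcript length and GC content, a replicate block, and omission of 1 library at a time. The edgeR, limma-voom, DESeq2 and replicate-block fits were also run on simulated counts with few changed genes and a common dispersion. With 44.9% of all genes tested called here, that simulation cannot check the scaling or the calls. The other steps were not simulated. Python packages were scipy 1.17.1, pandas 2.3.3, matplotlib 3.10.9 and numpy 2.4.6.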

Additional observations from a re-analysis of the deposited data

How the results depend on the processing

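With each library left out in turn, between 1 and 3 of the prostaglandin and lipid storage genes were called higher in the libraries labelled Tks5+/- and between 0 and 2 lower, against 2 and 1 in the reported fit. Without wt replicate 2 or wt replicate 3, Ptges was no longer called, and without Tks5+/- replicate 3, Ptger4 was not. Fabp5 was called without Tks5+/- replicate 1 or Tks5+/- replicate 3, and Lpl without wt replicate 1 or wt replicate 2. With library totals as the only scaling, 1 was called higher and 3 lower (Ptgis, Ptger4 and Lpl), while over all genes 1362 were called higher and 3944 lower against 2356 and 2286, and the median log2 fold change moved from -0.046 to -0.47. Relative to that median, Ptges was at 0.78, Fabp4 at 1.77 and Ptger4 at -1.40. DESeq2 called 2 lower (Lpl and Cd36), and the fit with no filter on low counts 3 (Ptger4, Lpl and Cd36).

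Values near 0 changed sign. Ptgs1 was at -0.0014 with upper-quartile scaling, -0.38 with library totals, -0.023 with at least 10 counts in every library, and -0.24, -0.058 and -0.14 without wt replicate 2, Tks5+/- replicate 1 and Tks5+/- replicate 3, with 0.35 as the highest value of these fits. Ptgs2 was at -0.28 with library totals and at -0.033 and -0.036 without wt replicate 1 and wt replicate 2, and at most at 0.61. Plin2 was at -0.24 with library totals, -0.32 on the authors' normalized counts and -0.037 with the length and GC correction. Sh3pxd2a was at -0.13 with library totals and called higher with the length and GC correction (1.15). The cause was not tested for any of these.

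In the other lists, the eicosanoid genes had 4 higher in DESeq2 and 4 higher and 4 lower with library totals (7 and 2 in the reported fit), and 1 to 3 lower with each library left out. The lipid droplet genes had 4 lower in DESeq2 (7) and 1 higher with at least 10 counts in every library (3). For fatty acid handling, 11 were lower with library totals and 1 with the length and GC correction (4), 2 to 5 with each library left out, and 1 was higher with at least 10 counts (2). That filter left 1 higher and 1 lower of the lipofibroblast regulators (2 and 3).

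Same-numbered wt and Tks5+/- libraries showed no common deviation (correlations of -0.0010, -0.064 and 0.082). Differently numbered ones ran from -0.10 to 0.097, so these values cannot decide whether libraries were paired, and the labels do not say. With the replicate number as a block, 2360 genes were called higher and 2308 lower, and the calls among the 9 genes tested stayed at 2 higher and 1 lower. Depth limited Ptger4, with 5 to 39 counts per library, Cd36 and Pparg.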
